A study of Mus musculus with 12 samples.

Results

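A set of 45 genes known to be induced by type I interferon was described across 4 groups of mouse livers from a study of acute autoimmune hepatitis. The genes were chosen by symbol, from a list of common type I interferon stimulated genes that includes sensors, transcription factors and antiviral effectors. They were chosen with earlier results of these data known, so the shares set beside those of all genes describe the list and do not test it. On the arrays 41 of the 45 had a probe set with a single gene symbol, and the probe set with the highest mean over the 12 arrays stood for each gene. The other 4 (Isg15, Oas1g, Ifi44 and Trex1) had none and were not analysed here. The 41 passed the filter on dim probe sets (a mean log2 level of at least 5.25 over the 12 arrays), among 18193 genes with such a probe set and 12760 genes tested in the whole series. Oas3 and Ifi204 passed it only through TGFB KO, the group in which they were highest, as their other 9 arrays averaged 4.85 and 4.88. Their rises are therefore given as values that the filter helped to select.

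Liver RNA of 12 BALB/c mice was measured, 3 mice and 3 arrays per group. The groups are called here as in the labels. Balb/c WT mice were intact. TGFB KO mice lacked Tgfb1, the gene of transforming growth factor beta 1, an immune suppressive cytokine whose loss in BALB/c mice leads to a lethal T cell driven hepatitis. The labels give IFNko TGFB1 KO for mice that lacked both Tgfb1 and Ifng, the gene of interferon gamma. INFko TGFB+ is the label of mice without Ifng that kept Tgfb1, and whether these carried 1 or 2 Tgfb1 copies is not given. The knockouts were of the whole animal, the ages are not given in the labels, and both groups without Ifng share that deletion, so the comparison between them is the effect of Tgfb1 loss in its absence.

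Type I interferons are a family of cytokines, with interferon alpha and beta as the main forms, that nearly every cell can make when sensors detect foreign or misplaced nucleic acid. They bind the Ifnar1 and Ifnar2 receptor and, through the kinases Jak1 and Tyk2, activate a complex of Stat proteins and Irf9 that binds the interferon stimulated response element in promoters. Interferon gamma, which T cells and natural killer cells make, uses its own receptor and mainly a Stat dimer that binds the gamma activated site. Many genes, including many of those described here, respond to both kinds of interferon, and in the liver they are expressed in hepatocytes as well as in immune cells.

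The targeted genes were read first. The mean signal of Tgfb1 was 319 in Balb/c WT, 68.1 in TGFB KO, 188 in INFko TGFB+ and 40.2 in IFNko TGFB1 KO, and it fell with the TGFB knockout both with Ifng (log2 fold change -1.82 ± 0.44 SE, adjusted p = 0.0105) and without (-2.04 ± 0.44, adjusted p = 0.00557). The mean signal of Ifng was 18.4, 127, 5.36 and 60.9 in the same order. Ifng signal was thus above that of Balb/c WT in the arrays labelled IFNko TGFB1 KO, and it rose against INFko TGFB+ (1.63 ± 0.30, adjusted p = 0.00243). The labels do not say which part of Ifng was disrupted or whether the probe set lies in it. The signal therefore neither bears out nor contradicts the Ifng label, and every statement below on mice without Ifng rests on the labels. The array IFNko TGFB1 KO 1 stood apart in its deposited signals, with a median of 61.3 against 33.8 to 42.6 in the other 11. The summed signal of hepatocyte markers was high on every array and is given by group below.

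The response element core, written GAAA, any 2 bases and GAAA again, and searched on both strands, was looked for in RefSeq promoter windows of assembly GRCm38.p6, which run from 250 bases before to 50 bases after each gene start. Windows were held for 34 of the 45 genes, and 14 of the 34 (41.2%) contained the core, against 3.99% of all 27025 genes with a window. The longer form, in which CT follows the core directly, was in 7 of 34 (20.6%) against 0.303% of all genes. The gamma activated site core, written TTC, any 3 bases and GAA, was in 7 of 34 (20.6%) against 9.55%. A match is a run of letters and not a shown binding site, and a window without a match says nothing of the rest of the gene. The windows of 4 genes are printed to show the element in genes with different responses below, each written in the direction of transcription with the core matches in capitals. Ifit1 lies at chr19:34640639-34640938 on the plus strand, with matches that begin at -104 and -85 from the gene start. Bst2 lies at chr8:71537423-71537722 on the minus strand, with overlapping matches at -130 and -124 and a gamma activated site core at -136 that overlaps the first of them. The windows of Oas1a at chr5:120907476-120907775 and Trim30a at chr7:104465144-104465443 are on the minus strand, with matches at -20 and -14 in Oas1a and at -36 in Trim30a. The Oas1a window also holds a gamma activated site core, at -98.
Ifit1: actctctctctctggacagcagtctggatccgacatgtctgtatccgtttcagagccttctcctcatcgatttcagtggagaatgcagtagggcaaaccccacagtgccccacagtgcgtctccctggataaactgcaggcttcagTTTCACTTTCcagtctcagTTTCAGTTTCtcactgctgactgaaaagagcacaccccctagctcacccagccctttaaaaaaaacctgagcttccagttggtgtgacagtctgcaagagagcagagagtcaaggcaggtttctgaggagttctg
Bst2: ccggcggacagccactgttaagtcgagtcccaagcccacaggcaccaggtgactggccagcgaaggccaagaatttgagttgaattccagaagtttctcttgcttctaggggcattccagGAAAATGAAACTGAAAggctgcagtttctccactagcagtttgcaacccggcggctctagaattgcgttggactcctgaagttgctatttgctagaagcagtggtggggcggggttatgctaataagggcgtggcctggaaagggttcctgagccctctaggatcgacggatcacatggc
Oas1a: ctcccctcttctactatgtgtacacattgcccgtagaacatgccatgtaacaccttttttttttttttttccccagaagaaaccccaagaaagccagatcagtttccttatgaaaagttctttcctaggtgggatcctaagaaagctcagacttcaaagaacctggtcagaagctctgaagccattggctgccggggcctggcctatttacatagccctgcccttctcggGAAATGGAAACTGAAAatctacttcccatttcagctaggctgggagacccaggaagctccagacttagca
Trim30a: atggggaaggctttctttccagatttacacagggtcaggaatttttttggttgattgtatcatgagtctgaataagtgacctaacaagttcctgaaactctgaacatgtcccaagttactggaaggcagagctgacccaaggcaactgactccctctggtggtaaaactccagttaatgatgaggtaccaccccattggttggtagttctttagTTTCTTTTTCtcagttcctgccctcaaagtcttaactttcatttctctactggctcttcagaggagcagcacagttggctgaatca

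The first comparison asks what losing Tgfb1 did to these genes in mice that had Ifng. In TGFB KO livers 35 of the 41 genes rose against Balb/c WT and 0 fell, where 12.2% of all genes tested rose and 11.9% fell (limma, Benjamini-Hochberg adjusted over 12760 genes, threshold 0.05). At an unadjusted p under 0.05, 37 were higher and 0 lower, beside 2160 and 2452 of all 12760 genes. The median log2 fold change of the 41 was 1.40, from -0.28 to 3.09, against -0.06 over all genes. Without Oas3 and Ifi204 it was 33 of 39 genes, with a median of 1.302. Of those 39 the largest rises were in Oasl1, Ifit2 and Oasl2, each with a log2 fold change above 2.7. In 36 of the 41 every TGFB KO array lay above every Balb/c WT array, a pattern seen in 18.4% of all genes. In 31 of the 41 the 3 TGFB KO arrays lay above all 9 other arrays, against 4.92% of all genes. Oas3 and Ifi204 are among both the 36 and the 31. The rises of Ifit3, Oas2 and Ifih1 missed the threshold when some of the arrays were left out (adjusted p of up to 0.0547, 0.086 and 0.127). That of Ifih1 was also lost with no filter or with the replicate block. The 6 genes not called higher were Mx2, Trim21, Cmpk2, Stat2, Trim25 and Ddx58. Levels here are log2 of the signal plus 16 after quantile normalization, and fold changes on that scale understate those of dim genes.

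The second comparison is the same loss of Tgfb1 in mice without Ifng. Between IFNko TGFB1 KO and INFko TGFB+ only 7 of the 41 genes rose and 4 fell, which is near the background, as 12.7% of all genes rose and 13.1% fell. The median was 0.12, from -0.99 to 1.92, against -0.01 over all genes. The 7 were Ifi27l2a, Trim30a, Oas1a, Sp100, Irf7, Dhx58 and Mx1, and the 4 that fell were Ifit1, Usp18, Herc6 and Ifih1. All IFNko TGFB1 KO arrays lay above all INFko TGFB+ arrays in 11 genes and below them in 10, against 22.2% and 23.3% of all genes. The count of falls is sensitive: it was 1 (Ifih1) with the deposited scaling and 0 without INFko TGFB+ 1 or without INFko TGFB+ 3. It was 1 without TGFB KO 2, INFko TGFB+ 2 or IFNko TGFB1 KO 2, and the count of rises was 4 without INFko TGFB+ 1. The rises of Ifi27l2a, Trim30a, Oas1a and Sp100 passed in every alternative in which they were tested. With an array left out, the adjusted p rose to 0.101 in Irf7, 0.073 in Mx1, 0.0529 in Dhx58, 0.122 in Ifit1, 0.159 in Usp18, 0.132 in Herc6 and 0.128 in Ifih1.

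**Figure D1:**
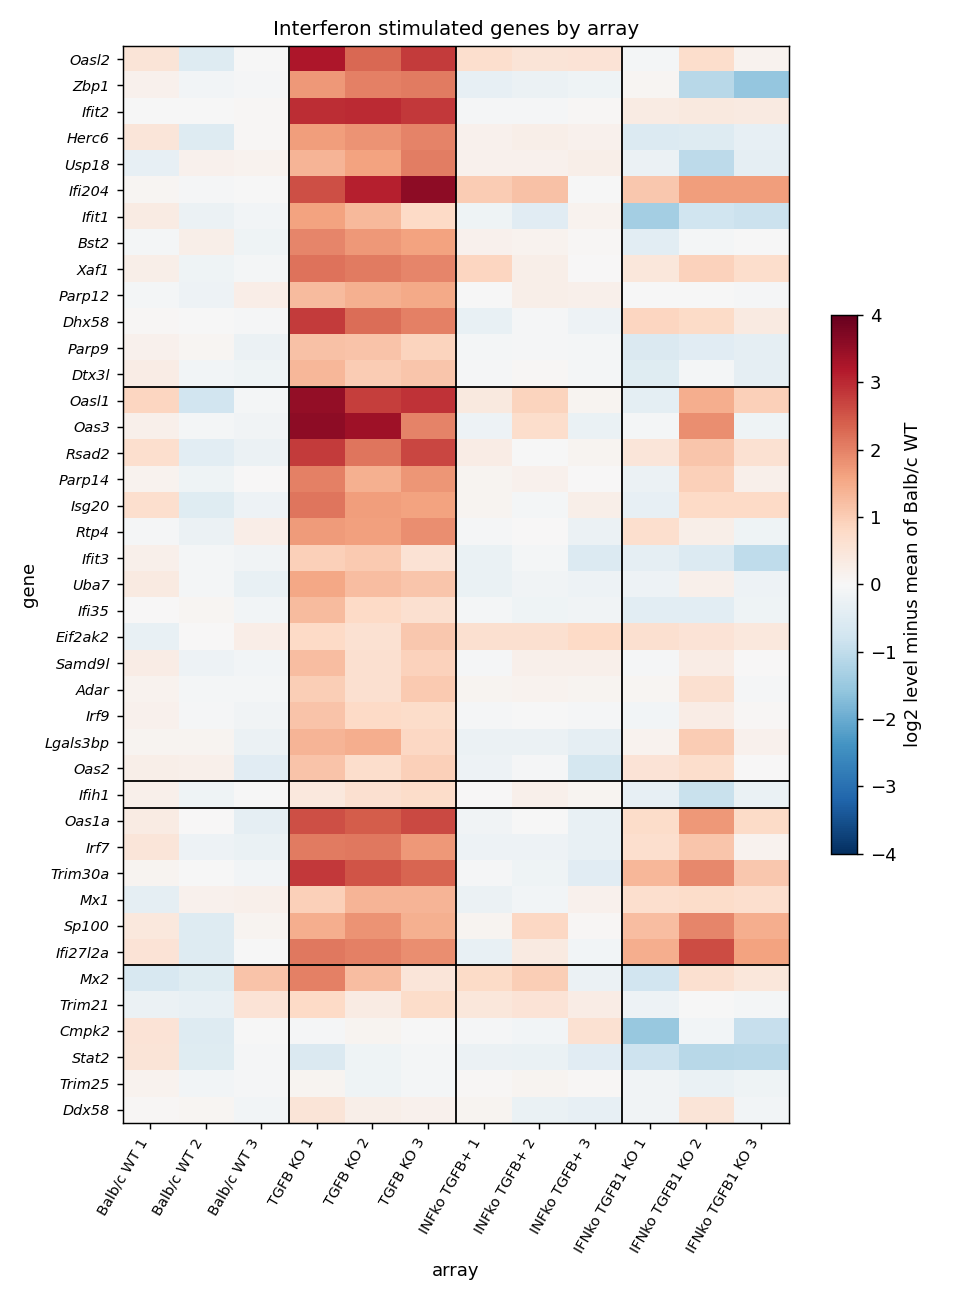
Log2 level of each of the 41 genes on each of the 12 arrays, minus the mean of the Balb/c WT arrays of that gene (red higher, blue lower). Horizontal lines separate, from top to bottom, 13 genes whose TGFB effect was larger with Ifng, 15 called higher with Ifng only, Ifih1, 6 called higher in both backgrounds and 6 not called higher in TGFB KO.

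Ifng loss alone, with Tgfb1 kept, left these genes with no call. Between INFko TGFB+ and Balb/c WT 0 of the 41 passed limma's test in either direction, and 0 of 12760 genes did. At an unadjusted p under 0.05, 1 of the 41 was higher and 0 lower, beside 329 and 321 of all genes. The median log2 fold change was 0.07, and the range over the 41 genes was -0.32 to 0.73.

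Among mice without Tgfb1, those that also lacked Ifng had lower levels of most of these genes. In IFNko TGFB1 KO against TGFB KO 28 of the 41 fell and 0 rose, where 2.82% of all genes fell and 2.54% rose. At an unadjusted p under 0.05, 34 fell and 0 rose, beside 1222 and 1413 of all 12760 genes. Without Oas3 and Ifi204, which passed the filter only through TGFB KO, 26 of 39 genes fell past the threshold. The median log2 fold change was -1.37, against 0.02 over all genes. All 3 TGFB KO arrays lay above all 3 IFNko TGFB1 KO arrays in 34 of 41 genes, Oas3 and Ifi204 among them, against 9.92% of all genes. The TGFB KO arrays enter this comparison, the first one and the difference below, so those results are not independent of each other. Without TGFB KO 1 the count of falls was 20.

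The test of Ifng dependence is the difference between the TGFB effect with Ifng and the TGFB effect without it. That difference was larger than 0 past the threshold in 13 of the 41 genes and smaller in 0, where 0.627% of all genes were called in the first direction and 0.243% in the second. On the probe set that stood for each gene, the estimate was positive in all 41. Its median was 1.31 on the log2 scale, with a range of 0.07 to 3.11, against a median of -0.01 over all genes. Without Oas3 and Ifi204 the count was 12 of 39. The 13 were Oasl2, Zbp1, Ifit2, Herc6, Usp18, Ifi204, Ifit1, Bst2, Xaf1, Parp12, Dhx58, Parp9 and Dtx3l. At an unadjusted p under 0.05 it was larger than 0 in 31 of 41 and smaller in 0, beside 735 and 775 of all 12760 genes. The count moves with single arrays: it was 7 without Balb/c WT 2, INFko TGFB+ 1 or INFko TGFB+ 2, and 8 without Balb/c WT 3, TGFB KO 1 or TGFB KO 2. In all 22 alternative settings 6 of the 13 stayed called, namely Oasl2, Ifit2, Herc6, Usp18, Bst2 and Parp12. In the other 7 the adjusted p with an array left out reached 0.0745 (Ifit1), 0.138 (Dhx58), 0.0818 (Xaf1), 0.0755 (Zbp1), 0.0509 (Parp9), 0.0855 (Dtx3l) and 0.132 (Ifi204).

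These calls sort the 41 genes into groups. The 13 with a larger effect with Ifng (0.596% of all genes) comprise 3 that fell without Ifng (0.0784% of all genes), 9 not called without it (0.361%) and 1, Dhx58, that still rose (0.157%). A rise in both backgrounds, with a difference that did not pass, was found in 6 genes (7.29% of all genes). Another 15 rose with Ifng, were not called without it and had a difference that did not pass (4.23% of all genes), so their need for Ifng is not settled by these arrays. Ifih1 alone rose with Ifng and fell without it while its difference missed the threshold (0.00784% of all genes). A rise that was larger without Ifng was found in 0 of the 41 (0.047% of all genes), and 6 genes were not called higher with Ifng (87.8% of all genes). A difference that missed the threshold does not show that the effects were alike. Its unadjusted 95% interval excludes 0 in all of the 15 but Lgals3bp and Oas2, and, of the 6 called in both backgrounds, in Oas1a, Irf7 and Trim30a. Over all genes tested the difference had an unadjusted p under 0.05 in 11.8%.

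**Figure D2:**
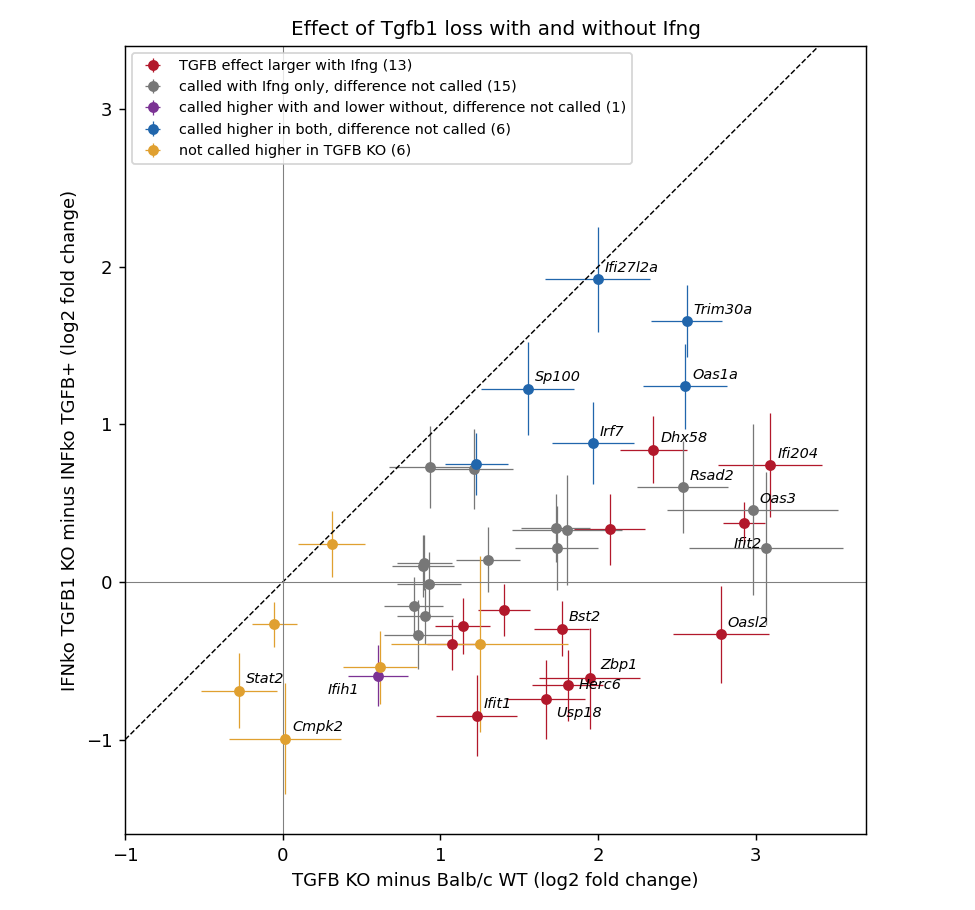
Log2 fold change of Tgfb1 loss with Ifng (horizontal axis, TGFB KO minus Balb/c WT) against that without Ifng (vertical axis, IFNko TGFB1 KO minus INFko TGFB+) for the 41 genes, with bars of 1 standard error and equality as a dashed line. All 41 points lie below the dashed line, Ifi27l2a (2.00 and 1.92) close to it and Oasl2 (2.78 and -0.33) far from it.

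Among the transcription factors and regulators of the pathway, Irf7, the factor that amplifies interferon alpha production, rose in both backgrounds. Its log2 levels were 8.51, 7.82 and 7.78 in Balb/c WT, 10.10, 10.14 and 9.76 in TGFB KO, 7.83, 7.83 and 7.74 in INFko TGFB+, and 8.69, 9.15 and 8.19 in IFNko TGFB1 KO. The IFNko TGFB1 KO arrays lay above INFko TGFB+ and below TGFB KO with no overlap. The rise was 1.97 ± 0.26 with Ifng (adjusted p = 0.000299) and 0.88 ± 0.26 without (adjusted p = 0.0279), so 44.7% of the log2 rise was kept, and the difference of 1.09 (95% interval 0.28 to 1.90, not adjusted for the number of genes) did not pass (adjusted p = 0.258).

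Irf9, the DNA binding part of the type I interferon complex, rose by 0.90 ± 0.17 with Ifng (adjusted p = 0.00343), against 0.12 without it (adjusted p = 0.654), a difference that did not pass (adjusted p = 0.224). Stat2, the partner of Irf9 in that complex, was not called in either comparison (-0.28, adjusted p = 0.453, and -0.69, adjusted p = 0.0551). Its IFNko TGFB1 KO arrays, at 7.40, 7.12 and 7.17, were nevertheless its lowest, below all 9 others. A second Stat2 probe set gave 0.46 and -1.11 for the same comparisons, so the probe sets disagree in direction with Ifng.

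Usp18, a protease that removes Isg15 from proteins and restrains the type I interferon receptor, rose with Ifng and fell without it. Its levels were 7.88, 8.40 and 8.36 in Balb/c WT, 9.58, 9.81 and 10.26 in TGFB KO, 8.39, 8.38 and 8.45 in INFko TGFB+, and 7.97, 7.16 and 7.87 in IFNko TGFB1 KO. All IFNko TGFB1 KO arrays lay below all INFko TGFB+ arrays, and all TGFB KO arrays were above the rest. The TGFB effect was 1.67 ± 0.25 with Ifng and -0.74 ± 0.25 without, a difference of 2.41 (95% interval 1.64 to 3.19, adjusted p = 0.00851). The fall has an adjusted p of 0.0475 and was lost in 11 of the 22 alternatives, while the difference passed in all of them.

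The sensors of nucleic acid did not move together. Dhx58, the helicase LGP2 that regulates the other helicase sensors of viral RNA, had levels of 6.23, 6.16 and 6.15 in Balb/c WT, 8.97, 8.42 and 8.19 in TGFB KO, 5.90, 6.14 and 5.97 in INFko TGFB+, and 7.03, 6.96 and 6.54 in IFNko TGFB1 KO. IFNko TGFB1 KO lies between TGFB KO and both groups with Tgfb1, with no overlap. It was the only 1 of the 13 that still rose without Ifng (0.84 ± 0.21, adjusted p = 0.0131, against 2.35 ± 0.21 with it), and its difference of 1.51 has an adjusted p of 0.0421. The other Dhx58 probe sets gave 0.02 and 1.65 with Ifng and -0.29 and -0.24 without it, so the rise without Ifng rests on 1 probe set.

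Ifih1, the sensor MDA5 for long double stranded RNA, rose by 0.60 ± 0.19 with Ifng (adjusted p = 0.0404) and fell by 0.59 ± 0.19 without it (adjusted p = 0.0407). Its levels were 8.91, 8.55 and 8.70 in Balb/c WT, 9.15, 9.38 and 9.44 in TGFB KO, 8.75, 8.91 and 8.82 in INFko TGFB+, and 8.40, 7.84 and 8.45 in IFNko TGFB1 KO. Neither pair of groups overlaps, yet the difference of 1.20 missed the threshold (adjusted p = 0.0781). That difference passed with median centring, a pseudocount of 64, the 60th percentile filter or a variance trend. The Ifih1 rise and fall were both lost with no filter or with the replicate block, and the rise also with many of the single arrays left out. Ddx58, the related sensor RIG-I, was not called in either comparison (0.31 and 0.24) and had the smallest difference of the 41, at 0.07. Dimmer Ddx58 probe sets gave -0.15 and -0.66 with Ifng and -0.11 and 0.10 without, so its probe sets disagree in direction.

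Zbp1, a sensor of Z-form nucleic acid that can start inflammatory cell death, had levels of 8.11, 7.84 and 7.91 in Balb/c WT, 9.70, 9.97 and 10.02 in TGFB KO, 7.64, 7.71 and 7.77 in INFko TGFB+, and 8.02, 6.84 and 6.42 in IFNko TGFB1 KO. The IFNko TGFB1 KO arrays straddle those of INFko TGFB+. Its TGFB effect was 1.95 ± 0.32 with Ifng and -0.61 ± 0.32 without (adjusted p = 0.191), a difference of 2.56 (95% interval 1.56 to 3.55, adjusted p = 0.0247). Ifi204, of the PYHIN family of DNA binding proteins, had group means of 4.15 in Balb/c WT, 7.24 in TGFB KO, 4.87 in INFko TGFB+ and 5.62 in IFNko TGFB1 KO, and it passed the filter only through TGFB KO. Its TGFB effect with Ifng was 3.09 ± 0.33, and its 0.74 ± 0.33 without Ifng did not pass (adjusted p = 0.125). Its difference of 2.35 has an adjusted p of 0.0425. That call was lost with no filter, array weights, a variance trend or the replicate block, and with most single arrays left out. Eif2ak2, the kinase PKR that halts translation on double stranded RNA, rose by 0.83 ± 0.19 with Ifng, and Adar, which edits such RNA, rose by 0.89 ± 0.20. Their effects without Ifng were -0.15 (adjusted p = 0.592) and 0.10 (adjusted p = 0.747), and neither difference passed. Eif2ak2 was higher in INFko TGFB+ than in Balb/c WT (0.70 ± 0.19, limma unadjusted p = 0.00285, adjusted p = 0.91). In IFNko TGFB1 KO against TGFB KO it was not called (-0.28, adjusted p = 0.424). Dimmer Eif2ak2 probe sets gave 0.76 and 0.16 with Ifng and -0.26 and 0.11 without.

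The Ifit genes, neighbours on chromosome 19 whose products bind viral RNA and block its translation, all rose with Ifng, and none was called higher without it. Ifit2 had the smallest p of the difference among the 41. Its levels were 6.80, 6.82 and 6.87 in Balb/c WT, 9.79, 9.81 and 9.66 in TGFB KO, 6.79, 6.77 and 6.87 in INFko TGFB+, and 7.15, 7.22 and 7.17 in IFNko TGFB1 KO. TGFB KO stands far above the 3 other groups, and the IFNko TGFB1 KO arrays are slightly above both groups with Tgfb1. The effect was 2.93 ± 0.13 with Ifng and 0.37 ± 0.13 without, short of the threshold (adjusted p = 0.0584) but past it with the deposited scaling, a pseudocount of 1 or the 60th percentile filter, a difference of 2.55 (95% interval 2.14 to 2.96, adjusted p = 0.000122).

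Ifit1, whose promoter window with its pair of response element cores is printed above, went opposite ways in the TGFB comparisons. Its levels were 7.54, 6.99 and 7.12 in Balb/c WT, 8.82, 8.505 and 8.01 in TGFB KO, 7.05, 6.76 and 7.36 in INFko TGFB+, and 5.85, 6.43 and 6.34 in IFNko TGFB1 KO. The TGFB KO arrays were its 3 highest and the IFNko TGFB1 KO arrays its 3 lowest. It rose by 1.23 ± 0.26 with Ifng (adjusted p = 0.00538), fell by 0.85 ± 0.26 without (adjusted p = 0.0319), and the difference was 2.08 (adjusted p = 0.0241). Ifit3 had the same signs, 0.86 ± 0.22 (adjusted p = 0.0143) and -0.33 (adjusted p = 0.291), with a difference of 1.19 that did not pass (adjusted p = 0.125).

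The Oas genes, neighbours on chromosome 5, encode enzymes that make the oligoadenylate messenger which activates RNase L, and Oasl1 and Oasl2 on the same chromosome encode relatives of them. All 5 measured genes rose with Ifng, and they spread widely without it. Oasl2 had the largest difference of the 41. Its levels were 6.38, 5.35 and 5.86 in Balb/c WT, 9.11, 8.16 and 8.66 in TGFB KO, 6.53, 6.39 and 6.42 in INFko TGFB+, and 5.78, 6.57 and 5.99 in IFNko TGFB1 KO. TGFB KO lies above the rest, and IFNko TGFB1 KO overlaps both groups with Tgfb1. The effect was 2.78 ± 0.31 with Ifng and -0.33 ± 0.31 without (adjusted p = 0.465), a difference of 3.11 (95% interval 2.16 to 4.06, adjusted p = 0.00642).

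Oas1a, by contrast, rose in both backgrounds. Its levels were 7.68, 7.38 and 7.001 in Balb/c WT, 9.92, 9.79 and 10.002 in TGFB KO, 7.21, 7.34 and 7.05 in INFko TGFB+, and 8.08, 9.10 and 8.13 in IFNko TGFB1 KO. IFNko TGFB1 KO lies between the groups with Tgfb1 and TGFB KO with no overlap. The rises were 2.55 ± 0.27 with Ifng (adjusted p = 5.46e-05) and 1.24 ± 0.27 without (adjusted p = 0.00587), and the difference of 1.31 (95% interval 0.48 to 2.14) did not pass (adjusted p = 0.178). Oas2 rose by 0.93 ± 0.26 with Ifng (adjusted p = 0.0229) and had 0.73 ± 0.26 without, short of the threshold (adjusted p = 0.0608), so its effects of 0.93 and 0.73 were close, with a difference of 0.20 (95% interval -0.60 to 1.01).

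Oas3 and Oasl1 had large estimates and a wide spread among mice of a group. Oas3 levels were 4.85, 4.57 and 4.52 in Balb/c WT, 8.22, 8.04 and 6.63 in TGFB KO, 4.44, 5.35 and 4.40 in INFko TGFB+, and 4.57, 6.51 and 4.48 in IFNko TGFB1 KO. TGFB KO 3 and IFNko TGFB1 KO 2 nearly meet, while the other 2 IFNko TGFB1 KO arrays are at the level of mice with Tgfb1. Oas3 too passed the filter only through TGFB KO. The effect with Ifng was 2.98 ± 0.54 (adjusted p = 0.00234), and the difference of 2.52 was among the larger ones but had an adjusted p of 0.205. Oasl1 rose by 3.06 ± 0.49 (adjusted p = 0.000977) and had 0.21 ± 0.49 without Ifng, a difference of 2.85 with an adjusted p of 0.0949. In IFNko TGFB1 KO its levels ran from 5.13 to 6.97.

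**Figure D3:**
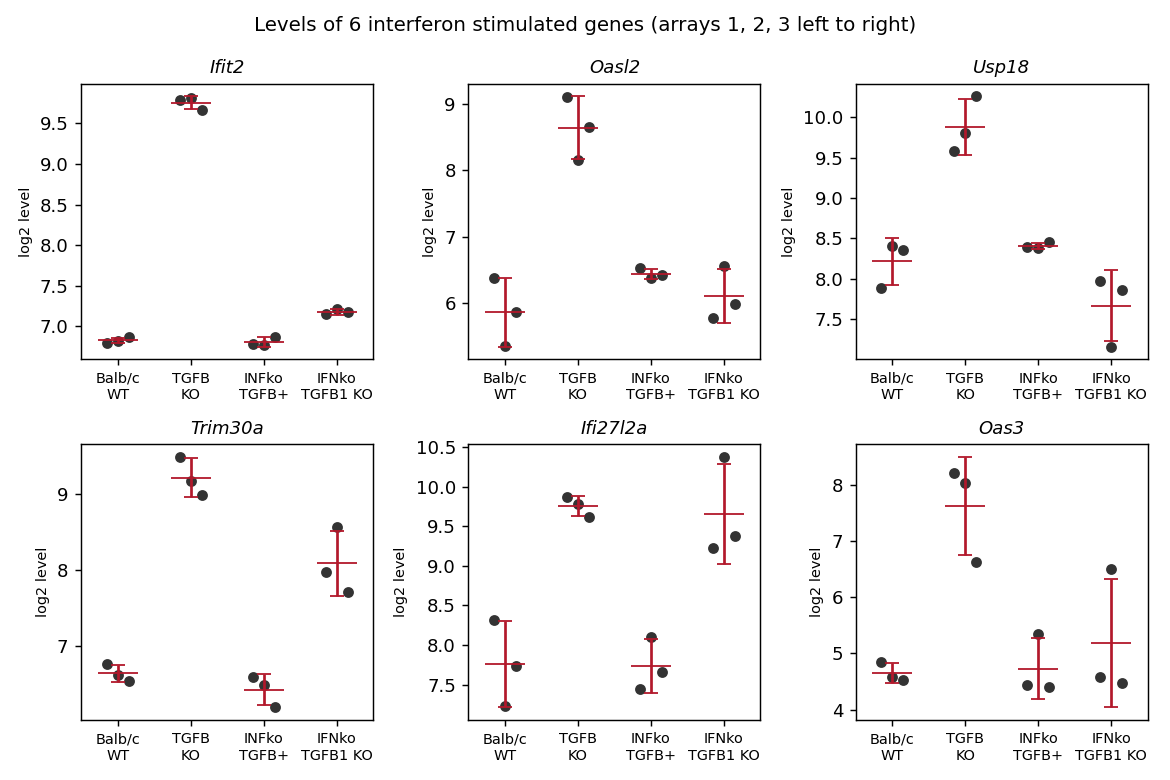
Log2 level on each array (points, arrays 1 to 3 from left to right) with the group mean and SD (red bars, n = 3) for 6 of the genes. Ifit2, Oasl2 and Usp18 are high in TGFB KO alone, Trim30a and Ifi27l2a are high in both groups without Tgfb1, and Oas3 varies among mice of a group.

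Other antiviral effectors divided in the same way. Bst2, or tetherin, which holds budding virus at the cell surface, had levels of 8.997, 9.31 and 8.91 in Balb/c WT, 11.03, 10.81 and 10.68 in TGFB KO, 9.23, 9.21 and 9.12 in INFko TGFB+, and 8.65, 8.99 and 9.04 in IFNko TGFB1 KO. Only TGFB KO stands above the rest, and all IFNko TGFB1 KO arrays lie below INFko TGFB+. The effect was 1.77 ± 0.18 with Ifng and -0.30 ± 0.18 without (adjusted p = 0.247), a difference of 2.06 (adjusted p = 0.00293).

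Rsad2, or viperin, which makes a nucleotide analogue that stops viral RNA synthesis, rose with Ifng by 2.54 ± 0.29 (adjusted p = 0.000109). Its levels were 8.95, 7.85 and 8.05 in Balb/c WT, 11.09, 10.43 and 10.95 in TGFB KO, 8.59, 8.29 and 8.39 in INFko TGFB+, and 8.78, 9.38 and 8.90 in IFNko TGFB1 KO. Its IFNko TGFB1 KO arrays were all above INFko TGFB+, by 0.60 ± 0.29, which did not pass (adjusted p = 0.157), and its difference of 1.94 (95% interval 1.03 to 2.84) came close to the threshold (adjusted p = 0.059). The Rsad2 difference passed in some alternatives, among them median centring, averaged probe sets and a variance trend. Cmpk2, the chromosomal neighbour of Rsad2 and a mitochondrial nucleotide kinase, showed no rise on its brightest probe set (0.01 ± 0.35), while a second probe set of nearly the same mean level gave 1.09. Cmpk2 was called higher without Balb/c WT 1, Balb/c WT 2, INFko TGFB+ 3 or IFNko TGFB1 KO 2, with an adjusted p as low as 0.0202. The brightest probe set was chosen anew in each of these fits, and the means of these probe sets were 6.47 and 6.45. Those calls can therefore reflect a change of probe set and do not show a dependence on single mice.

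Mx1, a gene of the Mx family of GTPases, rose in both backgrounds, by 1.23 ± 0.20 (adjusted p = 0.00112) and 0.75 ± 0.20 (adjusted p = 0.0165). Its levels were 5.29, 5.82 and 5.84 in Balb/c WT, 6.61, 7.02 and 7.01 in TGFB KO, 5.41, 5.53 and 5.83 in INFko TGFB+, and 6.32, 6.38 and 6.32 in IFNko TGFB1 KO. Both groups without Tgfb1 lie above both groups with it, and the difference of 0.48 has a 95% interval of -0.14 to 1.09. Mx2, the second Mx gene, overlapped between groups and was not called. It had 4.40, 4.58 and 6.18 in Balb/c WT and 7.08, 6.29 and 5.54 in TGFB KO (1.25 ± 0.56, adjusted p = 0.132, and 0.0357 without Balb/c WT 3). Isg20, an RNA exonuclease, rose by 1.80 ± 0.35 with Ifng (adjusted p = 0.0034) and had 0.33 without it (adjusted p = 0.531), and its difference of 1.47 did not pass (adjusted p = 0.256).

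Of the 6 genes of ADP-ribosylation and of Isg15 conjugation, which are Parp9, Dtx3l, Parp12, Parp14, Herc6 and Uba7, all rose with Ifng and 4 had a difference that passed. Parp9 and Dtx3l, adjacent genes on chromosome 16 whose products form a complex, gave similar fold changes on the probe sets used. Parp9 levels were 9.48, 9.37 and 9.05 in Balb/c WT, 10.48, 10.44 and 10.19 in TGFB KO, 9.21, 9.25 and 9.23 in INFko TGFB+, and 8.73, 8.83 and 8.94 in IFNko TGFB1 KO. Those of Dtx3l, which encodes the ubiquitin ligase of the pair, were 8.80, 8.39 and 8.35, then 9.83, 9.52 and 9.61, then 8.47, 8.55 and 8.45, and last 8.04, 8.45 and 8.15. In both genes TGFB KO was above every other array. The difference was 1.47 (95% interval 0.97 to 1.97, adjusted p = 0.0119) in Parp9 and 1.42 (0.87 to 1.97, adjusted p = 0.0241) in Dtx3l. A dimmer Dtx3l probe set gave 0.75 with Ifng and -0.88 without, where the probe set used gave -0.28 without. With its probe sets averaged, Dtx3l was called lower without Ifng.

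Parp12, another ADP-ribosyltransferase, had levels of 8.31, 8.20 and 8.64 in Balb/c WT, 9.64, 9.82 and 9.91 in TGFB KO, 8.36, 8.63 and 8.60 in INFko TGFB+, and 8.35, 8.37 and 8.34 in IFNko TGFB1 KO. Only TGFB KO is raised, and its 3 arrays are above all others. The difference was 1.58 (adjusted p = 0.00862). Parp14, of the same family, rose by 1.74 ± 0.26 with Ifng and had 0.22 without, and its difference of 1.52 missed the threshold (adjusted p = 0.101). Its array IFNko TGFB1 KO 2 was at 8.63, against 7.47 and 7.90 in the other 2.

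Herc6, the main ligase that attaches Isg15 in the mouse, had levels of 8.04, 7.05 and 7.60 in Balb/c WT, 9.23, 9.35 and 9.53 in TGFB KO, 7.74, 7.81 and 7.72 in INFko TGFB+, and 7.03, 7.05 and 7.23 in IFNko TGFB1 KO. Every IFNko TGFB1 KO array was below every INFko TGFB+ array. The effect was 1.81 ± 0.22 with Ifng and -0.66 ± 0.22 without (adjusted p = 0.0498), a difference of 2.46 (95% interval 1.77 to 3.15, adjusted p = 0.00411). The fall was lost in 17 of the 22 alternatives, and 3 dimmer probe sets gave 0.50, 0.78 and 1.24 with Ifng and -0.52, -0.30 and -0.82 without. Uba7, the enzyme that activates Isg15 for conjugation, rose by 1.302 ± 0.20 with Ifng (adjusted p = 0.000915), had 0.14 without it, and had a difference of 1.16 that did not pass (adjusted p = 0.11).

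The Trim genes encode ubiquitin ligases, and the 3 measured differed from each other. Trim30a rose in both backgrounds, with levels of 6.77, 6.63 and 6.55 in Balb/c WT, 9.48, 9.17 and 8.99 in TGFB KO, 6.60, 6.49 and 6.20 in INFko TGFB+, and 7.98, 8.56 and 7.72 in IFNko TGFB1 KO. No 2 groups overlap except the pair with Tgfb1. The rises were 2.56 ± 0.23 (adjusted p = 1.7e-05) and 1.65 ± 0.23 (adjusted p = 0.000481), so 64.6% of the log2 rise was kept, and a second probe set gave 2.03 and 1.09. The difference of 0.91 (95% interval 0.20 to 1.61) did not pass (adjusted p = 0.282). Trim21, which is also an antibody receptor in the cytosol, did not pass with Ifng (0.62 ± 0.23, adjusted p = 0.0765, and 0.00849 without Balb/c WT 3), and Trim25, an activator of the sensor RIG-I, was at -0.05 and -0.27 with no call.

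Ifi27l2a and Sp100 were the genes with the least change between backgrounds among those that rose in both. Ifi27l2a, which encodes a small interferon induced protein, had levels of 8.32, 7.23 and 7.73 in Balb/c WT, 9.87, 9.78 and 9.61 in TGFB KO, 7.45, 8.11 and 7.66 in INFko TGFB+, and 9.22, 10.37 and 9.37 in IFNko TGFB1 KO. The groups without Tgfb1 overlap each other and lie above both groups with it. The rises were 2.00 ± 0.33 (adjusted p = 0.00139) and 1.92 ± 0.33 (adjusted p = 0.0019), so 96.1% of the log2 rise was kept, and the difference was 0.08 with a 95% interval of -0.96 to 1.11.

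Sp100, a protein of nuclear bodies, rose by 1.55 ± 0.29 (adjusted p = 0.00291) and 1.23 ± 0.29 (adjusted p = 0.00991). Its levels were 6.26, 5.31 and 5.93 in Balb/c WT, 7.28, 7.64 and 7.24 in TGFB KO, 5.95, 6.66 and 5.87 in INFko TGFB+, and 7.08, 7.79 and 7.28 in IFNko TGFB1 KO. The groups without Tgfb1 overlap each other and lie above the groups with it, and the difference was 0.33 (95% interval -0.58 to 1.23). The intervals of Ifi27l2a and Sp100 are wide enough to hold a difference of about 1 on the log2 scale. Lgals3bp, a secreted glycoprotein that binds galectins, rose by 1.21 ± 0.25 with Ifng and had 0.72 ± 0.25 without, just short of the threshold (adjusted p = 0.0579).

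Of the remaining genes, Xaf1, an antagonist of an apoptosis inhibitor, had levels of 7.41, 7.01 and 7.10 in Balb/c WT, 9.35, 9.27 and 9.13 in TGFB KO, 8.03, 7.41 and 7.20 in INFko TGFB+, and 7.64, 8.11 and 7.89 in IFNko TGFB1 KO. Its IFNko TGFB1 KO arrays overlap those of INFko TGFB+. Its difference was 1.74 (95% interval 1.04 to 2.43, adjusted p = 0.0288), while a dimmer probe set gave 0.15 with Ifng and -0.46 without. Rtp4, a chaperone of membrane receptors, rose by 1.73 ± 0.22 with Ifng (adjusted p = 0.000211), and its difference of 1.39 did not pass (adjusted p = 0.0728). That difference passed in some alternatives, among them the deposited scaling, median centring, array weights and a variance trend. Ifi35 and Samd9l rose by 0.90 ± 0.18 and 0.93 ± 0.20 with Ifng and were at -0.22 and -0.01 without it, neither with a difference past the threshold.

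**Figure D4:**
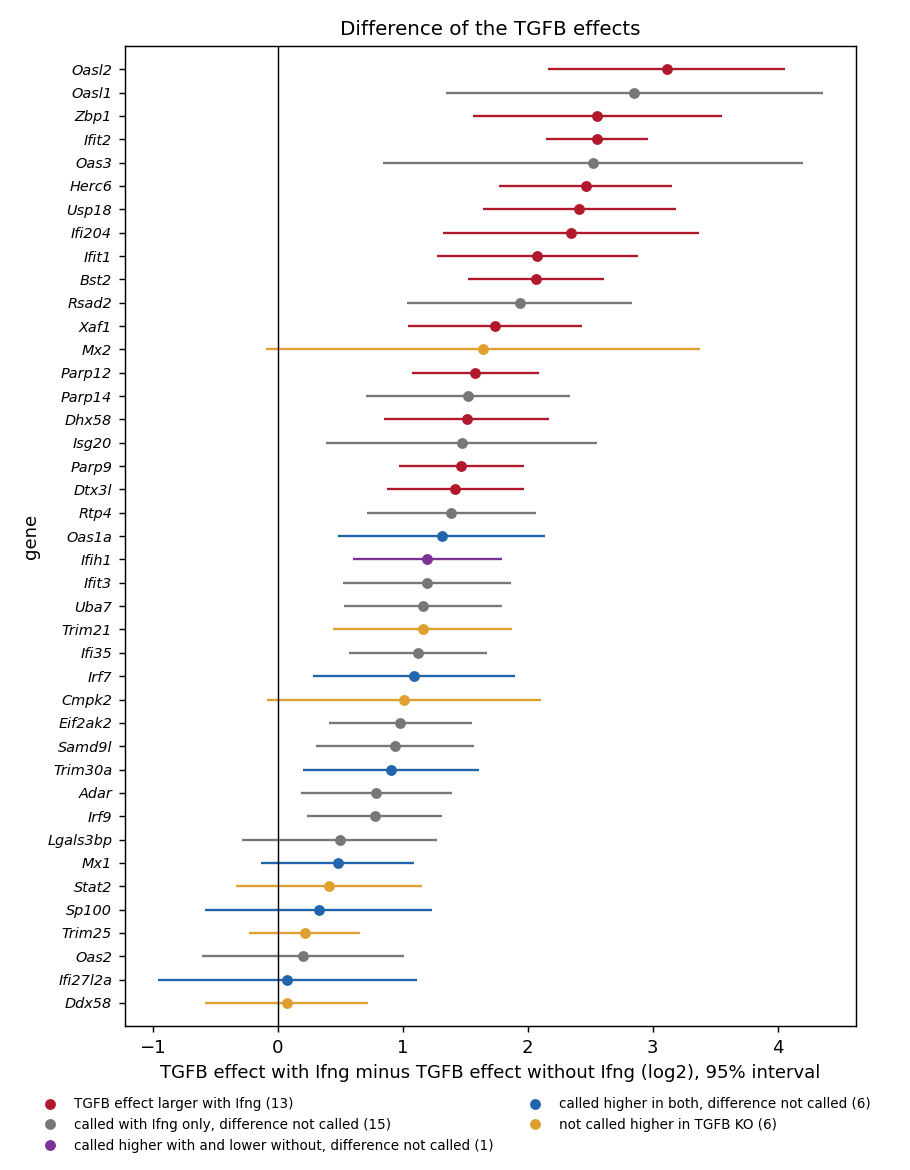
Difference of the TGFB effects (effect with Ifng minus effect without, log2) for the 41 genes in order of size, with 95% intervals that are not adjusted for the number of genes. The estimates run from 0.07 (Ddx58) to 3.11 (Oasl2) and all are positive, but 28 of the 41 do not pass. Among these are the 6 genes called higher in both backgrounds (blue), which lie between 0.08 and 1.31.

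Of the 34 genes with a promoter window, the response element core was in 2 of the 8 genes whose effect was larger with Ifng and in 2 of the 4 that rose in both backgrounds. It was also in 4 of the 12 undecided genes and in 3 of the 5 that were not called higher. The gamma activated site core was in 2 of 8, 1 of 4, 4 of 12 and 0 of 5 in the same order. In the windows of the IFN-gamma inducible reference genes the response element core was in 9 of 16 and the gamma activated site core in 5 of 16. These are counts of a few genes, and no test was made.

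The rest of the interferon pathway was read from lists of genes that are not among the 45. Of the interferon ligands 10 had a probe set and only Ifng and Ifna2 passed the filter on dim probe sets, so the other 8 were not tested. Among them is Ifnb1, the gene of interferon beta, with a mean signal of 6.44 in Balb/c WT, 19.2 in TGFB KO, 2.13 in INFko TGFB+ and 18 in IFNko TGFB1 KO. Ifna2 did not pass with Ifng (-1.04 ± 0.40, adjusted p = 0.0829) and fell without it (-1.19 ± 0.40, adjusted p = 0.0491). The receptor chains Ifnar1 and Ifnar2 were not called in either TGFB comparison (0.37 and 0.32 with Ifng, 0.42 and 0.04 without).

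Over all genes tested 12.2% rose and 11.9% fell with Ifng, and 12.7% rose and 13.1% fell without it. The effect was larger with Ifng past the threshold in 0.627% of them and smaller in 0.243%. Of 16 receptors and signalling genes 9 rose with Ifng, 5 rose without it and 1 had a difference that passed. That gene was Irf1, a transcription factor of the interferon gamma response (2.07 ± 0.21 with Ifng and 0.23 without, difference 1.85 ± 0.30, adjusted p = 0.0157). Of 16 other genes of nucleic acid sensing 8 rose with Ifng, and without it 6 rose and 1 fell. Samhd1, which depletes nucleotides, rose in both (3.52 ± 0.24 and 1.75 ± 0.24) and had the only difference that passed (1.77 ± 0.34, adjusted p = 0.0361).

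Of 44 other interferon stimulated genes 31 rose and 1 fell with Ifng, 13 rose and 3 fell without it, and 2 had a difference that passed, Gbp7 (2.23 ± 0.26, adjusted p = 0.00213) and Cxcl10 (2.19 ± 0.30, adjusted p = 0.00631). Their medians were 1.24 with Ifng and 0.36 without, beside 1.40 and 0.12 for the 41 genes. All 20 tested genes of the IFN-gamma inducible reference list rose with Ifng (median 3.77). Without Ifng 9 of them rose and 5 fell (median 0.58), and 16 of the 20 had a difference that passed, against 13 of the 41 genes. The median difference was 3.25 in the reference list and 1.31 in the 41, and no test compared the lists. Of all genes tested 12.2% rose and 11.9% fell with Ifng, and 12.7% rose and 13.1% fell without it. A larger effect with Ifng passed in 0.627% of them. These lists were assembled with earlier results of the same arrays known.

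**Figure D5:**
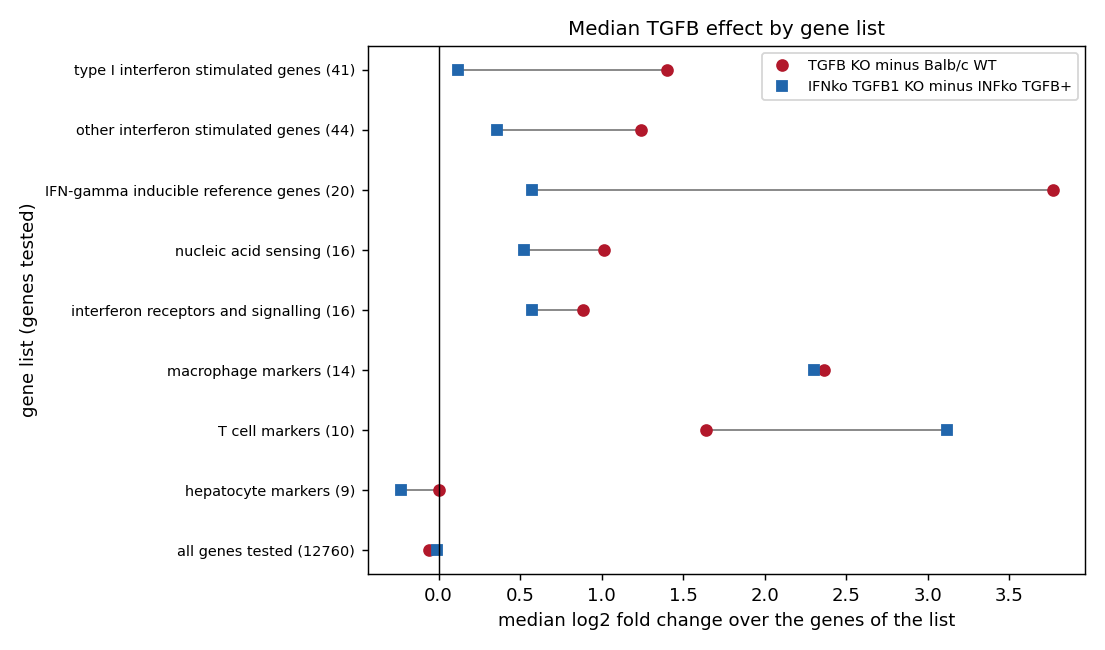
Median log2 fold change over the genes of each list for Tgfb1 loss with Ifng (red circles) and without Ifng (blue squares), with the number of genes tested in brackets. The medians of the 41 type I interferon stimulated genes are 1.40 and 0.12, those of the macrophage markers 2.36 and 2.31, and those of the T cell markers 1.64 and 3.12.

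Markers of immune cells and of hepatocytes changed as well, and in bulk RNA more cells of a type cannot be told apart from more RNA per cell. The counts below stand beside 12.2% of all genes that rose and 11.9% that fell with Ifng. Without Ifng these shares were 12.7% and 13.1%. All 14 macrophage markers rose in both TGFB comparisons, and their summed signal was 9184 to 11237 in Balb/c WT, 53627 to 56542 in TGFB KO, 9199 to 9260 in INFko TGFB+ and 39924 to 57538 in IFNko TGFB1 KO. The groups without Tgfb1 overlapped in that sum, and 0 of 14 macrophage markers were called by limma in the difference of effects or between IFNko TGFB1 KO and TGFB KO (at an unadjusted p under 0.05, 2 were lower in the first, and 2 higher and 5 lower in the second). Of all genes 0.627% were called larger and 0.243% smaller in the first, and 2.54% higher and 2.82% lower in the second. At an unadjusted p under 0.05 it was 11.8% and 20.7% of all genes. All 10 T cell markers rose in both comparisons, with sums of 185 to 246, 960 to 1241, 156.5 to 275 and 2509 to 4502 in the same order, so they were highest in IFNko TGFB1 KO. Of 11 neutrophil and monocyte markers 8 rose with Ifng and 9 without, and of 4 NK cell markers 3 and 4. Not all immune markers rose: of 6 B cell markers 0 rose with Ifng and 1 without. Of 6 tested plasmacytoid and conventional dendritic cell markers 2 rose in each comparison. Of 9 hepatocyte markers 1 fell with Ifng and 3 fell without, and their summed signal was 142253 to 156959 in Balb/c WT, 99007 to 127130 in TGFB KO, 133122 to 161291 in INFko TGFB+ and 79593 to 131872 in IFNko TGFB1 KO. Every array without Tgfb1 was below every array with it on that sum. The part of these marker changes in the levels of the interferon stimulated genes was not tested.

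Within groups, the same mice tended to be high for many of these genes. Balb/c WT 1 was the highest of its group in 30 of the 41 genes (73.2%, against 30.6% of all genes), and IFNko TGFB1 KO 2 was the highest of its group in 28 (68.3%, against 40.4%). The median level of the 41 was 7.88, 7.38 and 7.60 in Balb/c WT, 9.23, 9.12 and 8.99 in TGFB KO, 7.64, 7.71 and 7.66 in INFko TGFB+, and 7.64, 7.84 and 7.72 in IFNko TGFB1 KO. On this measure TGFB KO lies above the other 9 arrays, whose ranges overlap. The 41 genes are not independent of each other, as Ifit1, Ifit2 and Ifit3 or Parp9 and Dtx3l share a locus. Oas1a, Ifi204 and Trim30a belong to families of closely alike genes, and whether their probe sets also read a relative was not tested.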

How the data were processed

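Per the labels, liver RNA was extracted with Trizol, labelled with biotin (one-cycle) and hybridized to 12 arrays. Each holds 45101 probe sets, and the authors deposited a linear intensity for each of them. Every array has the same mean of 150 after trimming 2% at each end. The signal algorithm is not given in the sources used here. To each intensity 16 was added, log2 was taken and the 12 arrays were quantile normalized, since array medians differed by up to 0.634. Probe sets with a mean under the 40th percentile (log2 level 5.25) and 64 controls were left out, and the brightest of the probe sets with a single symbol stood for a gene. Symbols were updated through RefSeq GRCm38.p6 for 34754 probe sets. The probe sets numbered 34958 with 1 symbol, 932 with several and 9211 with none, and those with several or none name no gene here. A model with a mean per group was fitted to 12760 genes with limma 3.58.1 in R 4.3.3 (8 residual and 3.44 prior degrees of freedom), two-sided, with Benjamini-Hochberg adjustment and a threshold of 0.05. Values after ± are standard errors unless given as SD, with 3 mice per group. The label of INFko TGFB+ 1 has no number and was given 1. The procedure was tested on simulated data.

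The 45 genes and all lists were chosen with earlier results of these data known. All 45 are accounted for. Of the other lists, genes with the smallest p of the difference or of TGFB KO against Balb/c WT were named, up to 4 each, with ligands and receptors by level. Alternatives were median centring, the scaling as deposited, a pseudocount of 1 or 64, no filter or a 60th percentile filter, averaging the probe sets of a gene, array weights, a variance trend, a replicate block, and leaving out each array.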

Additional observations from a re-analysis of the deposited data

Results flagged for a closer look

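The effect of Tgfb1 loss differed between mice with and without Ifng for 13 genes, by limma's test of the difference itself. The difference (effect with Ifng minus effect without, log2) was 3.11 in Oasl2, 2.56 in Zbp1, 2.55 in Ifit2, 2.46 in Herc6, 2.41 in Usp18, 2.35 in Ifi204, 2.08 in Ifit1 and 2.06 in Bst2. It was 1.74 in Xaf1, 1.58 in Parp12, 1.51 in Dhx58, 1.47 in Parp9 and 1.42 in Dtx3l. Of these genes Herc6, Usp18 and Ifit1 were called lower without Ifng, a call lost in 17, 11 and 6 of the 22 alternatives. The Dhx58 difference was lost in 13, and its rise without Ifng had an adjusted p of 0.703 when its probe sets were averaged. Ifi204 passed the filter only through TGFB KO. Its difference was lost with no filter, array weights, a variance trend or the replicate block. It was also lost with any single array left out except TGFB KO 1 or INFko TGFB+ 3. The differences of Xaf1, Zbp1, Dtx3l and Ifit1 were each lost in several alternatives too, that of Xaf1 most often of these. That of Parp9 was lost only without INFko TGFB+ 2.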

How the results depend on the processing

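No call of these genes changed direction in any of the 22 alternatives, 12 of which leave out an array. Of the calls, 32 of 35 held in every one for TGFB KO against Balb/c WT, 4 of 11 for IFNko TGFB1 KO against INFko TGFB+, 6 of 13 for the difference, and 19 of 28 for IFNko TGFB1 KO against TGFB KO, as far as a gene was tested (the filter at the 60th percentile leaves 37 of 41). The 4 genes that fell without Ifng became 1 with the deposited scaling, 2 with a pseudocount of 1, and 0 with no filter or with the replicate block. A pseudocount of 64 raised the differences called, and with them the Ifng-dependent genes, from 13 to 20 and lowered the undecided genes from 15 to 8, which the 60th percentile filter lowered to 9. The cause was not tested. The longer response element was in 7 genes in place of 14. Leaving out each array gave 4 to 9 rises and 0 to 5 falls without Ifng, 7 to 16 differences and Ifng-dependent genes, 14 to 23 undecided genes, 4 to 9 that rose in both and 5 to 9 not called higher. It gave 32 to 36 rises with Ifng and 20 to 30 falls between the groups without Tgfb1. The replicate numbers were not treated as pairs of mice. Deviations of equal numbers correlated from -0.077 to 0.343, which cannot settle pairing, as unequal numbers were not compared. The replicate block gave 34 rises with Ifng, 9 without and 9 differences. The deposited scaling moved the median of all genes by 0.126 in IFNko TGFB1 KO against INFko TGFB+, and median centring moved that of the difference by 0.246. The number of arrays limits the precision, most of all for the difference, and p-values measure the spread among 3 mice per group.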
